A study of Homo sapiens with 15 samples.

Results

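The Notch signalling genes described here were 10 members chosen by name: the receptors NOTCH1, NOTCH2 and NOTCH3, the ligands JAG1, JAG2 and DLL1, and the target genes HES1, HES4, HEY1 and HEY2. The MRC5 table listed 9 of them among 16382 genes, and HEY2 had no row there. The H196 table listed all 10 among 16076 genes, so that the members were 10 of the 17138 genes of either table. The fibroblasts were of the human lung line MRC5. Of the small cell lung cancer (SCLC) lines, H69 is neuroendocrine (NE) and H196 is non-NE. MRC5 cells were mono-cultured (MRC5_Mo) or co-cultured for a week with H69 (MRC5_CoH69) or H196 cells (MRC5_CoH196), and H196 cells were mono-cultured (H196_Mo) or co-cultured with MRC5 fibroblasts (H196_Co), with 3 libraries in each of the 5 groups. The partner grew on the membrane of a transwell insert above the sequenced cells, so the lines shared medium but not a surface. The 15 libraries held 16073597 to 19170560 counts. No label says that replicates came from separate cultures, so the p-values measure the spread between these libraries, which may be technical.

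Notch is a signalling route between neighbouring cells. A ligand of the Jagged (JAG) or Delta-like (DLL) family on the surface of a cell binds a NOTCH receptor on the next. The receptor is then cut by an ADAM protease and by γ-secretase, and its intracellular domain enters the nucleus, joins the DNA-binding protein RBPJ and a Mastermind-like (MAML) coactivator, and turns on genes of the HES and HEY families, which encode transcriptional repressors. In SCLC, active Notch is known to hold back the NE programme and to mark non-NE cells, while DLL3, an inhibitory ligand, marks NE cells. NOTCH3 is the receptor best known from the smooth muscle cells and pericytes of the vessel wall.

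The labelled lines were checked by their markers. All 10 fibroblast markers, among them COL1A1 and PDGFRB, reached a mean of at least 1 FPKM in MRC5_Mo, and only COL6A1 did in H196_Mo. FPKM is the fragments per kilobase of gene, scaled to the library total, that the authors deposited. H196 carried the non-NE markers YAP1, REST, VIM and AXL, all at 1 FPKM or more, while the NE markers CHGA, NCAM1 and NEUROD1 stayed below 1 FPKM and INSM1 had no row. CHGB, SYP and DLL3, which are also counted as NE markers, were present in H196_Mo at means of 19, 8.71 and 4.04 FPKM. The summed level of the fibroblast markers was 28037 to 31204 CPM (counts scaled to the library total) in MRC5_Mo and 32032 to 33015 CPM in MRC5_CoH69. It was 14504 to 15218 CPM in MRC5_CoH196, where the mean of COL1A1 was 785 FPKM beside 2628 FPKM in MRC5_Mo. COL1A2, COL3A1 and THY1 were also lower in MRC5_CoH196 than in MRC5_Mo, while DCN, FAP and LUM overlapped. COL6A1, PDGFRA and PDGFRB were higher, PDGFRB with a mean of 85.5 beside 60.7 FPKM. The part of these shifts in the results on MRC5_CoH196 was not tested. Endothelial and immune defining markers (PECAM1, CDH5 and PTPRC) stayed below 0.1 FPKM wherever they were listed, while the lysosomal CD68 was at 55.1 FPKM in MRC5_Mo and 58.5 FPKM in H196_Mo, and 2 or 3 of the 5 epithelial markers, but not EPCAM, reached 1 FPKM in every group.

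The promoters of 3 target genes held the sequence that RBPJ binds, and they are shown because these 3 are the members, of those examined, whose promoter window holds the site of the pathway's own DNA-binding factor. In the RefSeq promoters of assembly GRCh38.p14, each 250 bases before to 50 bases after the annotated start, 8 of the 10 members were examined. The core TGGGAA, searched on both strands, was found in HES1, HES4 and HEY2, 3 of the 8, and in 24.0% of all 35116 promoters. The longer GTGGGAA, which contains that core, was found in the same 3 and in 6.25% of all promoters. The stretches below are 100 bases each, written 5′ to 3′ on the strand of the gene, with the core or its reverse complement in capitals.
HES1, chr3:194136018-194136117, plus strand: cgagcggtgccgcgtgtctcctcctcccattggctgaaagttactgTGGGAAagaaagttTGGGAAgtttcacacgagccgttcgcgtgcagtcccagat
HES4, chr1:1000128-1000227, minus strand: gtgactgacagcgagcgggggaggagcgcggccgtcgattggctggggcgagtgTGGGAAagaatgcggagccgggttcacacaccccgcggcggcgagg
HEY2, chr6:125749382-125749481, plus strand: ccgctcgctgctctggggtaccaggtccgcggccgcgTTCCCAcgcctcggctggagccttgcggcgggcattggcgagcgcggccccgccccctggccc
Counted from the annotated start of the RefSeq promoter as 0, the cores of HES1 began at -84 and -70 and the core of HES4 at -76. Those of HEY2 began at -213 and -3, of which the last crosses the start and is not shown. For HES4, HEY2 and JAG2 this start lies inside the gene's span in the GRCh38.p13 annotation, and other starts were not searched. The promoters of NOTCH1, NOTCH2, NOTCH3, JAG1 and JAG2 held no such core in this window. The HES and HEY box CACGNG was found in 5 of the 8 and in 30.5% of all promoters, and its palindromic form CACGTG in 0 of the 8 and in 7.26%. The hypoxia response cores ACGTG and GCGTG, the first of which lies within CACGTG, were found in 1 and 7 of the 8, against 21.4% and 36.5% of all promoters. A match is a description of the letters and does not show binding.

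Genes were called DEGs where edgeR's quasi-likelihood test gave an adjusted p (Benjamini-Hochberg, over all genes tested) under 0.05 and the log2 fold change was beyond 0.58 in either direction, and all p-values given below are of this test unless named otherwise. In MRC5_CoH196 against MRC5_Mo, 4 of the 9 tested members were DEGs and all 4 rose: JAG2, NOTCH3, HES4 and HES1. Of all 12819 genes tested in MRC5, 31.9% were DEGs in that comparison and 17.2% were DEGs that rose. In MRC5_CoH196 against MRC5_CoH69, where 28.2% of all genes were DEGs and 15.2% were DEGs that rose, 4 of 9 members rose: JAG2, NOTCH3, DLL1 and HES4. In MRC5_CoH69 against MRC5_Mo, where 0.554% of all genes were DEGs, 0 of 9 members were DEGs by edgeR, and the DESeq2 Wald test and limma on log2 FPKM also called 0. An unadjusted p under 0.05 by edgeR was reached by 2 of 9 (HES1 and HEY1, both higher). The share of all genes at that limit was not counted, so this number has no background. In H196_Co against H196_Mo, where 3.86% of all 12806 tested genes were DEGs and 3.26% were DEGs that rose, 3 of 10 members rose: HES4, NOTCH3 and JAG2. NOTCH3, JAG2 and HES4 were thus DEGs in both lines when these were grown together. With no limit on fold change, an adjusted p under 0.05 was reached by 6 of 9 members in MRC5_CoH196 against MRC5_Mo (74.3% of all genes), by 6 of 9 against MRC5_CoH69 (72.3%), by 0 of 9 in MRC5_CoH69 against MRC5_Mo (6.70%) and by 5 of 10 in H196_Co (19.8%). In these bulk libraries, fewer cells of a type and less RNA per cell cannot be told apart.

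**Figure D1:**
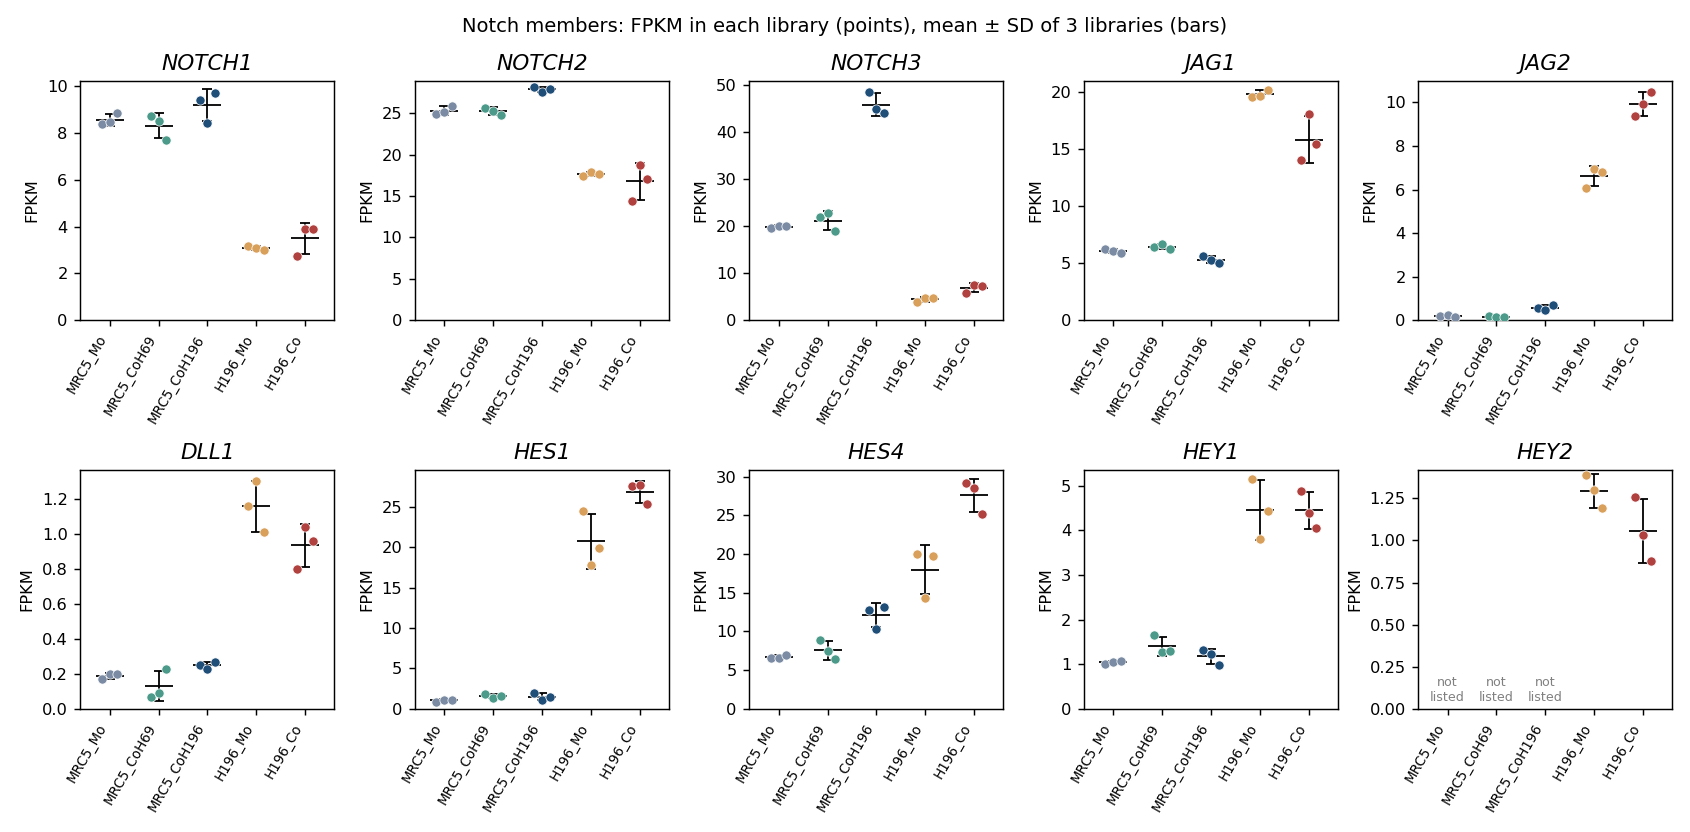
FPKM of the 10 members (one panel each, linear axes from 0) in the 15 libraries, with points for the libraries and bars for the mean and SD of the 3 libraries of a group. NOTCH3 was at 44.16 to 48.66 FPKM in MRC5_CoH196 and at most 22.72 FPKM in every other group, while JAG2, HES1 and HES4 were highest in H196_Co.

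The median log2 fold change of the 9 tested members in MRC5_CoH196 against MRC5_Mo was 0.67, beside -0.00 over all genes, and 8 of 9 values were above 0. In MRC5_CoH69 against MRC5_Mo it was 0.10, with 6 of 9 above 0. In H196_Co against H196_Mo it was 0.16, with 7 of 10 above 0, again beside -0.00 over all genes. On the FPKM scale the groups MRC5_CoH196 and MRC5_Mo did not overlap for 6 members, 5 higher and 1 lower, but the same was true of 75.9% of all genes, 26.7% higher and 49.2% lower. MRC5_CoH69 and MRC5_Mo did not overlap for 2 members, both higher, against 11.0% of all genes that were apart and higher. H196_Co and H196_Mo did not overlap for 5 members, 4 higher and 1 lower, against 40.3% of all genes, 13.3% higher and 27.0% lower.

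NOTCH3, a receptor (gene ID 4854, chromosome 19, 15159038 to 15200995 in GRCh38.p13), showed the clearest change among the receptors. In MRC5_Mo its level was 19.66, 20.01 and 20.13 FPKM, in MRC5_CoH69 21.95, 22.72 and 18.91 FPKM, and in MRC5_CoH196 48.66, 44.88 and 44.16 FPKM. Every MRC5_CoH196 library lay above every other MRC5 library, whereas MRC5_CoH69 and MRC5_Mo overlapped. The log2 fold change was 1.38 (SE 0.055, 2.60-fold, adjusted p = 4.58e-17) for MRC5_CoH196 against MRC5_Mo and 1.27 (SE 0.055, adjusted p = 2.57e-16) for MRC5_CoH196 against MRC5_CoH69. For MRC5_CoH69 against MRC5_Mo it was 0.11 (95% interval -0.01 to 0.22, adjusted p = 0.304). H196 cells expressed less of the receptor, with 3.81, 4.71 and 4.80 FPKM in H196_Mo and 5.80, 7.58 and 7.37 FPKM in H196_Co. The H196 groups did not overlap, and NOTCH3 rose there by a log2 fold change of 0.71 (SE 0.10, 1.64-fold, adjusted p = 4.1e-05), or by 0.54, under the fold limit, by limma on log2(FPKM + 1).

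NOTCH1, the receptor first linked to leukaemia and a tumour suppressor in several epithelia, moved little in either line. Its level was 8.38, 8.48 and 8.85 FPKM in MRC5_Mo, 8.72, 8.52 and 7.70 FPKM in MRC5_CoH69, and 9.42, 8.42 and 9.72 FPKM in MRC5_CoH196. All MRC5 groups overlapped. The log2 fold change of MRC5_CoH196 against MRC5_Mo was 0.25 (SE 0.058, adjusted p = 0.000414), which passed the p threshold but not the limit on fold change. In H196 cells NOTCH1 stood at 3.15, 3.08 and 3.01 FPKM alone and at 2.73, 3.88 and 3.88 FPKM in co-culture, with overlapping groups and a log2 fold change of 0.25 (95% interval 0.04 to 0.46, adjusted p = 0.0893).

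NOTCH2, the most abundant receptor mRNA of the mono-cultures, has near-identical partial copies in the human genome, and its expected counts were fractional, so its values are less certain than those of the other receptors. It stood at 24.90, 25.17 and 25.95 FPKM in MRC5_Mo, 25.70, 25.30 and 24.79 FPKM in MRC5_CoH69, and 28.17, 27.57 and 28.01 FPKM in MRC5_CoH196. The MRC5_CoH196 libraries were the highest and the others overlapped, with a log2 fold change against MRC5_Mo of 0.31 (SE 0.041, adjusted p = 1.91e-07), below the fold limit. H196_Mo had 17.38, 17.88 and 17.65 FPKM and H196_Co 14.42, 18.82 and 17.11 FPKM, with overlapping groups and a log2 fold change of 0.00 (95% interval -0.16 to 0.17, adjusted p = 0.99).

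Since FPKM is per length, the receptors can be set side by side within a library. In MRC5_Mo, NOTCH2 made up 46.9% ± 0.122 (SD, n = 3) of the summed receptor FPKM, NOTCH3 36.9% ± 0.384, NOTCH1 15.8% ± 0.148 and NOTCH4 0.448% ± 0.151. In MRC5_CoH196, NOTCH3 was the largest share at 54.9% ± 1.19 and NOTCH2 was second at 33.4% ± 0.870, and the summed level went from 54.1 ± 1.09 to 83.6 ± 2.89 FPKM. In MRC5_CoH69 the NOTCH3 share was 38.4% ± 1.67, and its 3 libraries (36.6% to 39.9%) overlapped with those of MRC5_Mo (36.4% to 37.1%). In H196 cells the NOTCH3 share was 16.7% ± 1.60 alone and 24.3% ± 0.652 in co-culture, without overlap, while NOTCH2 remained the largest share at 66.3% ± 1.19 and 59.1% ± 0.750.

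**Figure D2:**
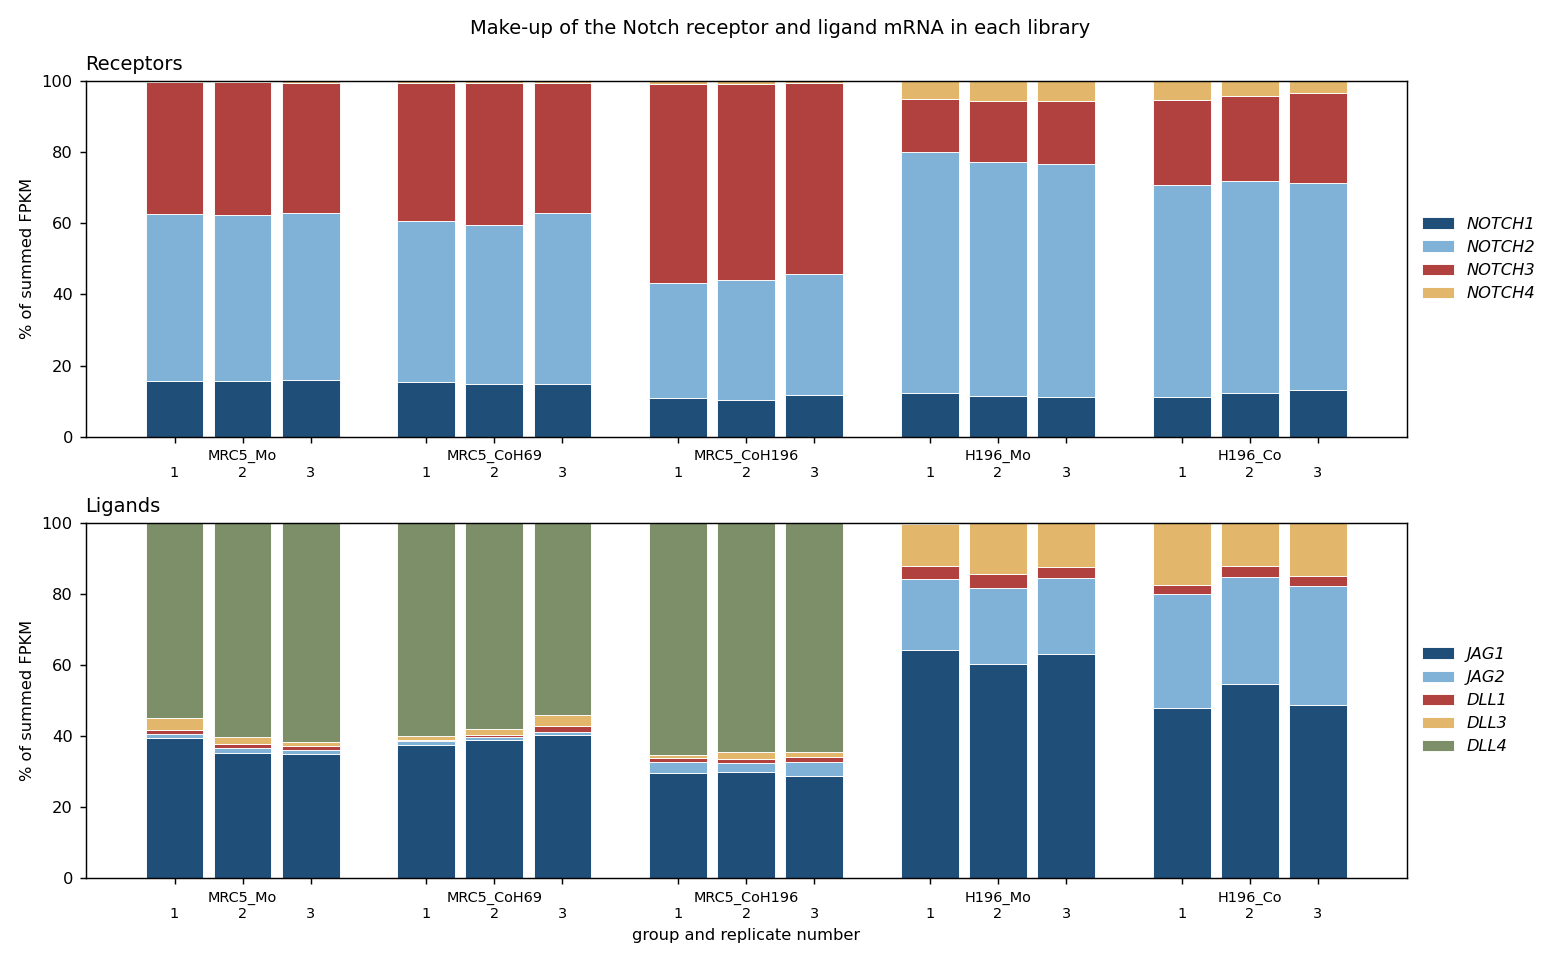
Share of each receptor (top) and each ligand (bottom) in the summed FPKM of its family, as % on a linear axis, with 1 stacked bar for each of the 15 libraries. NOTCH3 is the widest band of the receptors only in the 3 MRC5_CoH196 libraries (53.6% to 56.0%), and DLL4 is the widest band of the ligands in all 9 MRC5 libraries, while JAG1 is in all 6 H196 libraries.

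JAG2, a Jagged family ligand (gene ID 3714, chromosome 14, 105140981 to 105181194), had the largest log2 fold change of any member. It was scarce in fibroblasts, with 0.17, 0.23 and 0.16 FPKM (17, 24 and 16 counts) in MRC5_Mo and 0.19, 0.16 and 0.15 FPKM in MRC5_CoH69. In MRC5_CoH196 it reached 0.55, 0.45 and 0.68 FPKM (58, 46 and 71 counts), above every other MRC5 library. The log2 fold change was 1.77 (SE 0.22, 3.41-fold, adjusted p = 1.15e-07) against MRC5_Mo and 1.92 (SE 0.23, adjusted p = 5.11e-08) against MRC5_CoH69, and -0.15 (95% interval -0.74 to 0.44, adjusted p = 0.827) for MRC5_CoH69 against MRC5_Mo. H196 cells made far more of it, with 6.09, 6.94 and 6.81 FPKM in H196_Mo and 9.36, 9.93 and 10.46 FPKM in H196_Co. The H196 groups were apart, and JAG2 rose by a log2 fold change of 0.66 (SE 0.080, 1.58-fold, adjusted p = 6.43e-06). By limma on log2(FPKM + 1) the log2 fold changes of JAG2 were 0.39 and 0.42 for MRC5_CoH196 against MRC5_Mo and MRC5_CoH69 and 0.52 for H196_Co, all under the fold limit.

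JAG1, the other Jagged ligand, did not pass as a DEG in any co-culture comparison. Its level was 6.22, 6.10 and 5.89 FPKM in MRC5_Mo, 6.44, 6.67 and 6.21 FPKM in MRC5_CoH69, and 5.66, 5.29 and 4.98 FPKM in MRC5_CoH196. The MRC5_CoH196 libraries were lowest on the FPKM scale, but with TMM scaling the log2 fold change against MRC5_Mo was -0.02 (95% interval -0.14 to 0.11, adjusted p = 0.794) and turned to 0.02 without MRC5_CoH196 replicate 3. In H196 cells JAG1 was at 19.57, 19.67 and 20.20 FPKM alone and at 14.04, 18.06 and 15.40 FPKM in co-culture. The co-cultured libraries were all lower, and the log2 fold change was -0.25 (SE 0.080, adjusted p = 0.0324), below the fold limit.

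DLL1, a Delta-like ligand that activates Notch, was near the limit of detection in fibroblasts. MRC5_Mo held 11, 11 and 13 counts (0.17, 0.20 and 0.20 FPKM), MRC5_CoH69 4, 6 and 15 counts, and MRC5_CoH196 17, 15 and 18 counts (0.25, 0.23 and 0.27 FPKM). The MRC5_CoH69 libraries were spread the widest and overlapped with the other groups on the FPKM scale. The log2 fold change of MRC5_CoH196 against MRC5_CoH69 was 1.14 (SE 0.37, adjusted p = 0.00831), and this call was lost without MRC5_CoH69 replicate 1 (0.80, adjusted p = 0.0668) and by limma on log2(FPKM + 1) (0.15), and was 1.86 without replicate 3. Against MRC5_Mo it was 0.67 for MRC5_CoH196 (95% interval -0.04 to 1.38, adjusted p = 0.0835) and -0.47 for MRC5_CoH69 (-1.30 to 0.36, adjusted p = 0.578). In H196 cells DLL1 was at 1.16, 1.30 and 1.01 FPKM alone and at 0.80, 1.04 and 0.96 FPKM in co-culture, with overlapping groups and a log2 fold change of -0.27 (-0.61 to 0.07, adjusted p = 0.259).

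Among the canonical ligands DLL4, known from vessel sprouting, was the most abundant in fibroblasts, although it is not one of the 10 members. Its mean was 9.82 ± 1.03 FPKM (SD, n = 3) in MRC5_Mo, 9.56 ± 1.05 in MRC5_CoH69 and 11.7 ± 0.669 in MRC5_CoH196, where the log2 fold change against MRC5_Mo was 0.42 (SE 0.077, adjusted p = 2.58e-05), below the fold limit. It made up 59.0% ± 3.58 of the summed FPKM of JAG1, JAG2, DLL1, DLL3 and DLL4 in MRC5_Mo and 64.8% ± 0.497 in MRC5_CoH196, and JAG2 made up 1.12% ± 0.191 and 3.12% ± 0.722. In H196 cells DLL4 had 1 to 5 counts in a library, and JAG1 led with 62.5% ± 1.94 alone and 50.5% ± 3.63 in co-culture, while JAG2 went from 20.8% ± 0.763 to 31.7% ± 1.60 without overlap. DLL3 made up 12.7% ± 1.27 and 14.7% ± 2.57 in H196_Mo and H196_Co, with a log2 fold change of 0.25 (SE 0.14, adjusted p = 0.205). In fibroblasts DLL3 had 4 to 17 counts in a library.

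HES4, a HES family repressor (gene ID 57801, chromosome 1, 995966 to 1001052) whose RBPJ core is shown above, rose in both lines. Its level was 6.52, 6.63 and 6.94 FPKM in MRC5_Mo, 8.87, 7.41 and 6.39 FPKM in MRC5_CoH69, and 12.82, 10.32 and 13.12 FPKM in MRC5_CoH196. The MRC5_CoH196 libraries were above all others and the remaining MRC5 groups overlapped. The log2 fold change was 1.05 (SE 0.13, 2.08-fold, adjusted p = 6.29e-08) against MRC5_Mo and 0.89 (SE 0.13, adjusted p = 7.6e-07) against MRC5_CoH69, and 0.16 (95% interval -0.13 to 0.45, adjusted p = 0.584) for MRC5_CoH69 against MRC5_Mo. H196_Mo had 19.94, 14.28 and 19.72 FPKM and H196_Co 29.14, 28.46 and 25.17 FPKM, so that the groups were apart with replicate 2 of H196_Mo the lowest. The rise in H196 cells was 0.73 on the log2 scale (SE 0.11, 1.66-fold, adjusted p = 0.000101).

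HES1, the best known Notch target and a repressor of neural differentiation genes (gene ID 3280, chromosome 3, 194136148 to 194138732), was low in fibroblasts. It had 21, 27 and 28 counts (0.86, 1.11 and 1.16 FPKM) in MRC5_Mo, 44, 32 and 39 counts (1.80, 1.33 and 1.62 FPKM) in MRC5_CoH69, and 49, 26 and 36 counts (1.97, 1.09 and 1.46 FPKM) in MRC5_CoH196. All MRC5_CoH69 libraries were above MRC5_Mo, whereas MRC5_CoH196 overlapped with both on the FPKM scale. The log2 fold change was 0.70 (SE 0.24, adjusted p = 0.0105) for MRC5_CoH196 against MRC5_Mo, a call that was lost without MRC5_CoH196 replicate 1 (0.45) or MRC5_Mo replicate 1 (0.58) and by limma on FPKM (0.46 and 0.28 with pseudocounts of 0.1 and 1). For MRC5_CoH69 against MRC5_Mo it was 0.60 (SE 0.24, unadjusted p = 0.0175, adjusted p = 0.136), and the co-cultures differed by 0.10 (95% interval -0.35 to 0.55, adjusted p = 0.7). In H196 cells HES1 was at 24.46, 17.82 and 19.95 FPKM alone and 27.63, 27.68 and 25.32 FPKM in co-culture. The groups were apart, and the log2 fold change of 0.46 (SE 0.094, adjusted p = 0.0019) was below the fold limit.

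HEY1, which encodes a HES-related repressor, was at 1.0, 1.05 and 1.07 FPKM in MRC5_Mo, 1.65, 1.27 and 1.29 FPKM in MRC5_CoH69, and 1.31, 1.24 and 0.98 FPKM in MRC5_CoH196. As for HES1, MRC5_CoH69 lay above MRC5_Mo in all libraries while MRC5_CoH196 overlapped with both on the FPKM scale. Neither change passed the threshold, with log2 fold changes of 0.44 (SE 0.19, unadjusted p = 0.0265, adjusted p = 0.172) for MRC5_CoH69 and 0.35 (SE 0.19, adjusted p = 0.102) for MRC5_CoH196. H196_Mo had 5.15, 3.80 and 4.43 FPKM and H196_Co 4.89, 4.40 and 4.05 FPKM, with overlapping groups and a log2 fold change of 0.08 (95% interval -0.19 to 0.34, adjusted p = 0.707).

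HEY2, its relative with a role in heart and vessel development, was measured in H196 cells only. It was at 1.39, 1.30 and 1.19 FPKM in H196_Mo and at 1.26, 1.03 and 0.88 FPKM in H196_Co. The groups overlapped, and the log2 fold change was -0.17 (95% interval -0.54 to 0.20, adjusted p = 0.535).

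**Figure D3:**
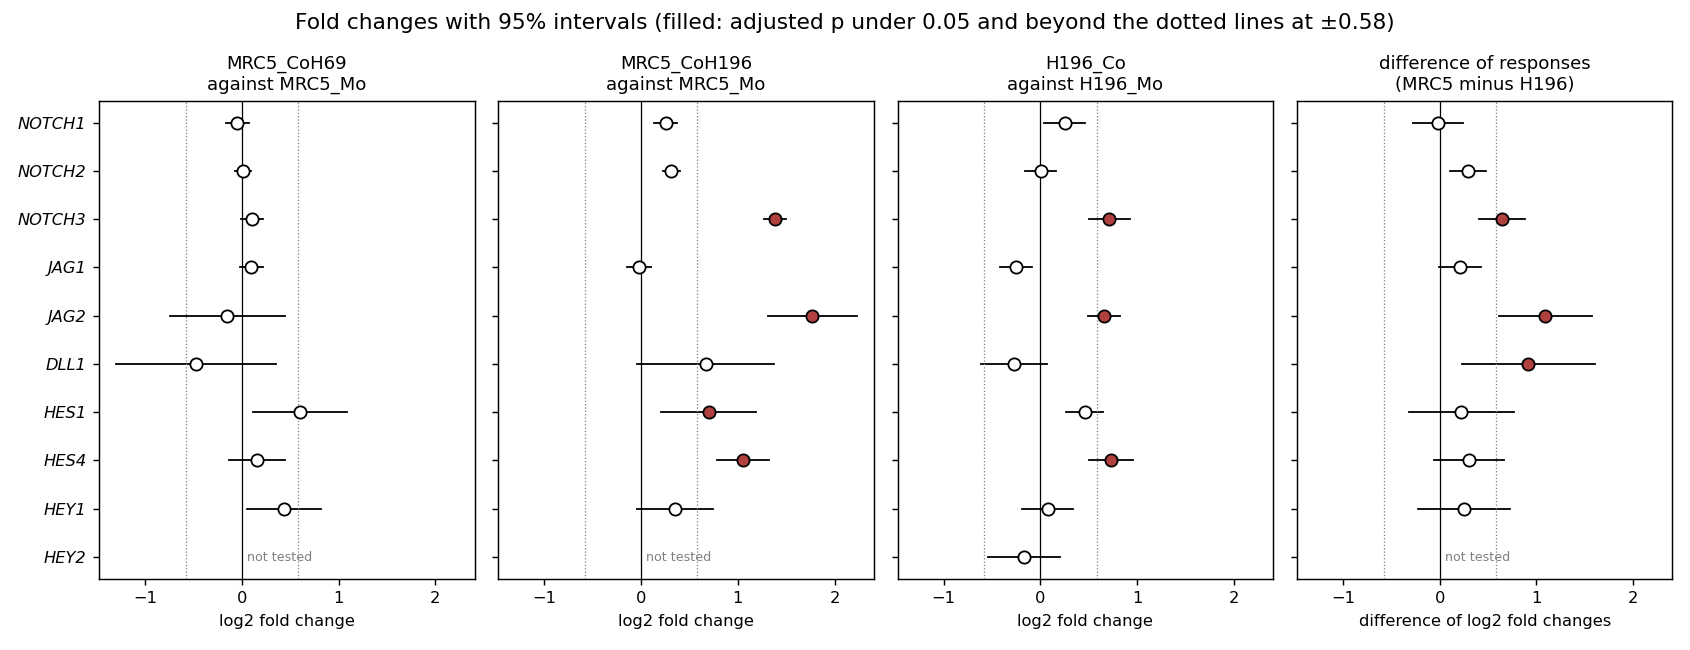
Log2 fold changes (points, linear axis) with 95% intervals (lines) of the members in 3 co-culture comparisons and, at the right, the difference of the MRC5 and H196 responses, with dotted lines at the fold limit and filled points for DEGs. NOTCH3, JAG2 and HES4 are filled in both MRC5_CoH196 and H196_Co, and 0 points are filled for MRC5_CoH69.

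Whether the lines responded differently to each other was tested by an interaction term over 12 libraries and 13531 genes, of which 24.5% passed, 12.2% with the larger log2 fold change in MRC5 cells. The members that passed were 3 of the 9, all with the larger value in fibroblasts (an adjusted p under 0.05 at any size was reached by 4 of 9 and by 49.9% of all genes): JAG2 by 1.09 on the log2 scale (SE 0.23, adjusted p = 0.000358), DLL1 by 0.92 (SE 0.33, adjusted p = 0.0242) and NOTCH3 by 0.65 (SE 0.12, adjusted p = 4.5e-05). The call of NOTCH3 was lost without H196_Co replicate 1 (0.54) or H196_Mo replicate 3 (0.57), both under the fold limit, and that of DLL1 without H196_Mo replicate 2 (0.81). The value of JAG2 turned to -0.13 by limma on log2(FPKM + 1), where the pseudocount exceeds its level in fibroblasts. For HES4 the difference was 0.30 (95% interval -0.06 to 0.66, adjusted p = 0.159) and for HES1 0.22 (-0.32 to 0.77, adjusted p = 0.502), so their responses in the lines were not shown to differ.

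The mono-cultures differed in every member that both tables listed, as did 61.6% of all genes tested across the tables. The tables were made separately, and the line and any difference between the runs cannot be told apart. All 3 receptors were higher in MRC5_Mo than in H196_Mo, as were 30.1% of all genes, with log2 fold changes of 2.62 (SE 0.085, adjusted p = 1.65e-20) for NOTCH3, 1.94 (SE 0.090, adjusted p = 4.34e-17) for NOTCH1 and 0.97 (SE 0.065, adjusted p = 1.78e-13) for NOTCH2. All 6 ligands and targets were lower in MRC5_Mo than in H196_Mo, as were 31.5% of all genes: JAG2 was 26.1-fold lower, HES1 14.5-fold, DLL1 4.72-fold, HEY1 3.13-fold, JAG1 2.40-fold and HES4 1.84-fold. In order of level, the 3 MRC5 groups stood above both H196 groups for each receptor and below them for each ligand and target. Within a line and on the FPKM scale, neighbouring groups overlapped for NOTCH1 throughout, for NOTCH2, DLL1, HEY1 and HEY2 between the H196 groups, for HES1 and HEY1 among the 3 MRC5 groups, and for every other member between MRC5_Mo and MRC5_CoH69.

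A list of 58 other genes of the pathway was examined beside the members. In MRC5_CoH196 against MRC5_Mo, 11 of the 51 tested were DEGs, 8 higher and 3 lower, with a median log2 fold change of 0.24, where 31.9% of all genes were DEGs, 17.2% higher and 14.7% lower. Among the DEGs that rose were HES7, NEURL1, NOTCH4, TLE2, MAML3, RBPJ and APH1B, and those that fell were LFNG, PSEN2 and POGLUT1. In MRC5_CoH196 against MRC5_CoH69, 13 of 51 were DEGs, 8 higher and 5 lower, beside 28.2% of all genes. In MRC5_CoH69 against MRC5_Mo, 0 of 51 were DEGs by edgeR, DESeq2 or limma, and 8 of 51 had an unadjusted p under 0.05 by edgeR, again without a count over all genes. In H196_Co against H196_Mo, 4 of 53 were DEGs, all higher, with a median log2 fold change of 0.03, beside 3.86% of all genes as DEGs and 3.26% as DEGs that rose. The number was 2 without H196_Co replicate 2 or without any 1 of the H196_Mo libraries.

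RBPJ, the DNA-binding partner of every NOTCH receptor, went from 30.62, 29.89 and 29.03 FPKM in MRC5_Mo to 45.88, 47.76 and 53.32 FPKM in MRC5_CoH196, while MRC5_CoH69 had 28.27, 28.10 and 31.02 FPKM. Only MRC5_CoH196 stood apart, with a log2 fold change of 0.86 (SE 0.044, adjusted p = 5.14e-15) against MRC5_Mo and 0.91 (SE 0.044, adjusted p = 2.34e-15) against MRC5_CoH69. In H196 cells RBPJ was at 16.48, 15.72 and 15.30 FPKM alone and at 20.48, 23.91 and 23.39 FPKM in co-culture, a log2 fold change of 0.55 (SE 0.072, adjusted p = 1.72e-05) that was just under the fold limit. The coactivator gene MAML3 rose by a log2 fold change of 1.08 (SE 0.11) in MRC5_CoH196, and its value in H196_Co was 0.09 (SE 0.10, adjusted p = 0.569).

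The receptor gene NOTCH4 had 19, 19 and 26 counts in MRC5_Mo, 36, 31 and 24 counts in MRC5_CoH69 and 71, 68 and 58 counts in MRC5_CoH196. All MRC5_CoH196 libraries were the highest, and NOTCH4 rose by a log2 fold change of 1.77 (SE 0.20, adjusted p = 2.45e-08) against MRC5_Mo and 1.26 (SE 0.19, adjusted p = 2.11e-06) against MRC5_CoH69. It was at 1.44 ± 0.0964 FPKM in H196_Mo and 1.21 ± 0.162 FPKM in H196_Co (SD, n = 3), with a log2 fold change of -0.18 (SE 0.15, adjusted p = 0.417).

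Among the genes whose products cut or glycosylate the receptors, PSEN2, LFNG and POGLUT1 fell and APH1B rose in fibroblasts grown with H196 cells. PSEN2, which encodes a catalytic subunit of γ-secretase, was at 7.96, 7.66 and 8.02 FPKM in MRC5_Mo, 7.22, 7.10 and 6.94 FPKM in MRC5_CoH69 and 2.90, 3.21 and 3.12 FPKM in MRC5_CoH196. It fell by 1.19 on the log2 scale against MRC5_Mo (SE 0.088, adjusted p = 8.01e-12), and all of these groups were apart. LFNG, a Fringe glycosyltransferase that tunes which ligand a receptor answers to, fell by 1.24 (SE 0.18, adjusted p = 1.49e-06), and POGLUT1, which adds glucose to the receptor, fell by 0.74 (SE 0.090, adjusted p = 6.03e-08). APH1B, which encodes another γ-secretase subunit, rose by a log2 fold change of 0.74 (SE 0.068). Of the 9 genes for receptor processing, 1 rose and 1 fell as DEGs, and of the 4 tested genes for sugar modification, 2 fell, beside 17.2% of all genes that rose and 14.7% that fell. None of these genes passed in H196_Co against H196_Mo by edgeR, where 0 of 9 and 0 of 4 were called, beside 3.86% of all genes. PSEN2 had a log2 fold change of -0.10 (adjusted p = 0.606), LFNG of -0.00 (adjusted p = 0.995) and POGLUT1 of -0.31 (adjusted p = 0.0763). By the interaction test, where 24.5% of all genes passed, PSEN2, LFNG and APH1B passed. POGLUT1 did not, so its responses in the lines were not shown to differ.

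Further targets and regulators were mostly at the floor in fibroblasts. HES7, a HES gene known from the segmentation clock, had 1, 2 and 1 counts in MRC5_Mo, 2, 1 and 4 counts in MRC5_CoH69 and 21, 17 and 11 counts in MRC5_CoH196, a ratio of 12.1 between the summed counts of MRC5_CoH196 and MRC5_Mo (95% exact interval 4.44 to 46.2, counting error only). NEURL1, which encodes a ubiquitin ligase of the Neuralized family acting on Notch ligands, had 7, 8 and 6 counts in MRC5_Mo and 26, 24 and 18 counts in MRC5_CoH196 (log2 fold change 1.83, SE 0.33, adjusted p = 2.54e-05). The Groucho corepressor gene TLE2 had 7, 6 and 7 counts in MRC5_Mo, 13, 8 and 13 counts in MRC5_CoH69 and 16, 9 and 19 counts in MRC5_CoH196, where it rose by a log2 fold change of 1.28 (SE 0.38, adjusted p = 0.00396). HEYL and NRARP, further direct targets, had 0 to 7 counts in every MRC5 library and were not tested there within the MRC5 table, and the ratio of summed counts of MRC5_CoH196 to MRC5_Mo was 1.98 for both, with intervals of 0.687 to 6.42 for HEYL and 0.616 to 7.37 for NRARP.

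In H196 cells NRARP, a feedback inhibitor of Notch, was at 2.59, 1.99 and 1.86 FPKM alone and at 3.25, 3.40 and 2.99 FPKM in co-culture. The groups were apart, and it rose by a log2 fold change of 0.66 (SE 0.14, adjusted p = 0.00199). HEYL was at 2.38 ± 0.0854 FPKM alone and 2.43 ± 0.226 FPKM in co-culture (SD, n = 3; log2 fold change 0.10, adjusted p = 0.555). The other DEGs of the list in H196_Co were the atypical ligand genes DNER (0.86, SE 0.30, adjusted p = 0.0465) and DLK2 (0.64, SE 0.16, adjusted p = 0.00734) and the Deltex gene DTX4 (0.73, SE 0.24, adjusted p = 0.0393), of which DNER and DTX4 had 11 to 37 counts in a library. DNER kept its call only without H196_Co replicate 1 and DTX4 only without H196_Co replicate 3, with adjusted p up to 0.201 and 0.136 without another library, and DLK2 lost its call without H196_Mo replicate 1 (0.47) and NRARP without H196_Mo replicate 3 (0.58). HES7 was at 14.7 ± 1.14 and 20.4 ± 1.34 FPKM, with a log2 fold change of 0.57 (SE 0.079, adjusted p = 3.23e-05) just under the fold limit.

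**Figure D4:**
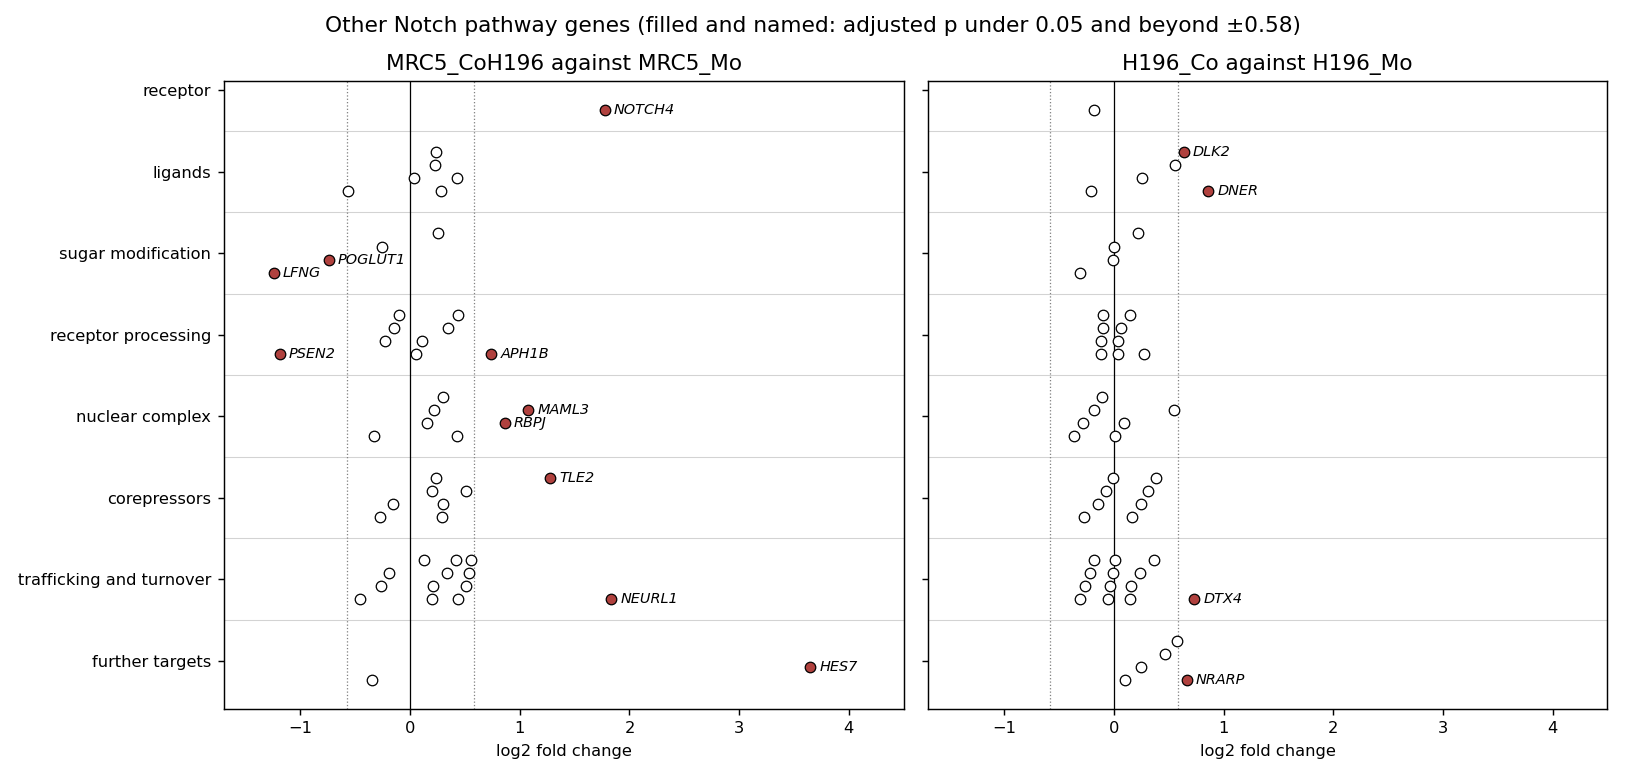
Log2 fold changes (linear axis) of the other pathway genes by role in MRC5_CoH196 against MRC5_Mo (left) and H196_Co against H196_Mo (right), 1 point for each gene shown, with DEGs filled and named and dotted lines at the fold limit. The left panel has filled points on both sides of 0, with 3 below it (LFNG, PSEN2 and POGLUT1), and the right panel has 4, all above 0.

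Between the mono-cultures, 41 of the 55 listed genes tested were DEGs, 26 higher and 15 lower in MRC5_Mo, beside 61.6% of all genes, 30.1% higher and 31.5% lower. DLL4, DTX4 and TLE4 were higher in fibroblasts by log2 fold changes of 7.42, 5.36 and 3.37, and MFAP5, with 1 to 3 counts in each H196_Mo library, by a count ratio of 6.87 (95% exact interval 2.70 to 22.4). TLE2 was lower in MRC5_Mo, with a log2 fold change of -5.82. HES7, HEYL and NRARP, each with 0 to 3 counts in every MRC5_Mo library, were higher in H196_Mo by count ratios of 349 (136 to 1284), 84.6 (38.6 to 232) and 56.6 (24.0 to 176). RBPJ was higher in MRC5_Mo by 1.32 (SE 0.059), NOTCH4 lower by a log2 fold change of -1.69 (SE 0.19) and DLL3 lower by one of -3.07 (SE 0.24). NOTCH1, NOTCH2, NOTCH3, RBPJ and DLL4 were therefore higher in fibroblasts. The receptor NOTCH4, the ligands JAG1, JAG2, DLL1 and DLL3, and the targets HES1, HES4, HES7, HEY1, HEYL and NRARP were higher in H196 cells.

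RNA of the partner was looked for in the libraries of the MRC5 and H196 co-culture, with marker genes chosen after the values were seen. The series holds no library of H69 cells, so H69 RNA in MRC5_CoH69 was not looked for. The 95 genes that reached 20 CPM in all H196 libraries while staying under 0.5 CPM in all libraries of MRC5_Mo summed to 53.5, 61.8 and 23.7 CPM in MRC5_CoH196 replicates 1 to 3 and to 8.36 to 10.4 CPM in the other MRC5 libraries. That is 0.680%, 0.785% and 0.301% of their level in H196_Co, beside 0.106% to 0.132% in MRC5_Mo and MRC5_CoH69. The median over the 95 genes in MRC5_CoH196 was 0.619%, 0.729% and 0.139%. Whether these counts were H196 RNA or expression of the genes in fibroblasts was not tested. The rise of each gene in MRC5_CoH196 over MRC5_Mo, as a percentage of its level in H196_Co, was 378% for NOTCH3, 80.2% for RBPJ, 55.5% for NOTCH4, 21.3% for HES4, 4.15% for NEURL1, 3.79% for JAG2, 2.25% for HES7, 1.71% for HES1 and 1.21% for TLE2. The part of H196 RNA in any of these rises was not tested. In replicate 3, the MRC5_CoH196 library where the 95 genes were lowest, JAG2 was at its highest and HES7 and NEURL1 were at their lowest. No relation to the level of the 95 genes was tested. With replicate 3 as the only MRC5_CoH196 library, an alternative also chosen after the values were seen, JAG2 had a log2 fold change against MRC5_Mo of 2.05. Those of NOTCH3, HES4 and HES1 were 1.34, 1.20 and 0.66, and in this library too the 95 genes were present, at 0.301% of their H196_Co level. In the opposite direction, 142 MRC5 genes stood at 0.0374% to 0.0416% of their MRC5_CoH196 level in H196_Mo and at 0.0476% to 0.0526% in H196_Co, and the rise of NOTCH3 in H196_Co was 5.38% of its level in MRC5_CoH196.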

How the data were processed

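The 15 mRNA libraries were sequenced on the BGISEQ platform. The authors cleaned reads with SOAPnuke, and per the labels used HISAT2 2.1.0, Bowtie2 2.3.4.3, RSEM 1.3.1 and GRCh38.p13. The deposited expected counts are unnormalized estimates of reads per gene, 93.7% (MRC5) and 92.1% (H196) of them whole. The deposited FPKM values are scaled by gene length and library total. Columns of fold changes and p-values hold the authors' own DESeq2 comparisons and were not used, nor were 30 further per-library columns.

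After rounding, the analysis of counts used edgeR 4.0.16 under R 4.3.3 (TMM, filterByExpr, quasi-likelihood), all 9 MRC5 and all 6 H196 libraries in a model each, and 12 libraries over the genes of both tables for the interaction and the mono-cultures. Tests were two-sided and adjusted over all genes tested. The scripts were tested on simulated data. Alternatives were DESeq2 1.42.0 size factors and Wald test, limma 3.58.1 on FPKM with pseudocounts of 0.1 and 1 on the log2 scale, other filters and limits, only the groups compared, a replicate block and each library left out. Totals of 16073597 to 19170560 counts set a floor of 3 counts at 0.156 to 0.187 CPM. Intervals on counts cover counting error only.

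The genes named are all members, of the other pathway genes the 4 DEGs with the largest change in each direction of a comparison, NOTCH4, DLL3, DLL4, RBPJ, HEYL and NRARP, and markers. APH1B and MAML3 were named beyond this rule after their values were seen. Some listed genes are counted but not reported here by name, and the plot of pathway genes leaves out 1 of them. Members and lists were chosen with earlier results of these data known. Promoters are from RefSeq (GRCh38.p14), which matched 9 of 10 members, and 8 were examined.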

Additional observations from a re-analysis of the deposited data

Results flagged for a closer look

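The response of fibroblasts to H196 cells differed from the response of H196 cells to fibroblasts, by the interaction test, for 3 of 9 members and for 13 of 55 other pathway genes, 10 with the higher and 3 with the lower value in fibroblasts, beside 24.5% of all genes. Among the members the log2 difference of responses (MRC5 minus H196) was 1.09 for JAG2, 0.92 for DLL1 and 0.65 for NOTCH3. JAG2 and NOTCH3 rose in both lines and, on the log2 scale, more in fibroblasts, while DLL1 had log2 fold changes of 0.67 in MRC5_CoH196 and -0.27 in H196_Co, neither of which passed on its own. In CPM, JAG2 rose by 2.06 in MRC5_CoH196 and by 18.2 in H196_Co, and its difference was -0.13 by limma on log2(FPKM + 1). The calls of NOTCH3 and DLL1 were lost without some single libraries, as given above.

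Of the other pathway genes, the 4 with the highest differences and the 3 below 0 are given: the difference was 3.07 for HES7, 1.94 for NOTCH4, 1.58 for DLK1, 1.45 for NEURL1, -0.95 for DTX4, -1.11 for PSEN2 and -1.26 for LFNG. DLK1, an atypical ligand gene, had 3 to 10 counts in each of these MRC5 libraries, and its call was lost without H196_Co replicate 2 (1.38, adjusted p = 0.0528) or MRC5_CoH196 replicate 1 (1.44, adjusted p = 0.0666). DTX4 had log2 fold changes of -0.19 in MRC5_CoH196, under the fold limit, and 0.73 in H196_Co. For HES7 and NEURL1 the rises in MRC5_CoH196 were 2.25% and 4.15% of the H196_Co level. The 95 genes used to look for H196 RNA stood there at 0.301% to 0.785% of their H196_Co level. The part of H196 RNA in these rises was not tested.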

How the results depend on the processing

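By limma on log2(FPKM + 1), which damps low genes, the members called were 2 in MRC5_CoH196 against MRC5_Mo, 2 against MRC5_CoH69, 1 in H196_Co and 1 in the difference of responses, and the other pathway genes called were 4, 4, 0 and 4. Over all genes, edgeR called 4092, 3618, 494 and 3319 in these comparisons. Limma on log2(FPKM + 1) called 2997 of 12819, 2567 of 12819, 195 of 12806 and 2377 of 13531, so calls fell over all genes too. On log2(FPKM + 0.1), 1 member was called in the difference of responses (25.8% of all genes) and 0 pathway genes in H196_Co (3.26% of all genes). With no limit on fold change, H196_Co had 5 members called, and the pathway genes called were 42, 1, 38, 16 and 29 in MRC5_CoH196, MRC5_CoH69, the co-cultures, H196_Co and the difference of responses. The shares of all genes were 74.3%, 6.70%, 72.3%, 19.8% and 49.9%. With a limit of 1 the members called were 0 in H196_Co and 1 in the difference of responses, and the pathway genes 7, 4, 0 and 6 in MRC5_CoH196, the co-cultures, H196_Co and the difference of responses. Over all genes these calls were 1564 of 12819, 1353 of 12819, 147 of 12806 and 1240 of 13531. Pathway genes called in H196_Co were 2 by the DESeq2 Wald test (2.87% of all genes), 2 at an adjusted p limit of 0.01 (370 of 12806 genes) and 2 to 5 without 1 library (3.28% to 4.01%). All other counts of calls stayed within 1.5 times.

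FPKM is scaled by the library total alone, and on that scale the median over all genes moved by -0.13 in MRC5_CoH196 against MRC5_Mo, where 915 genes were called higher and 2082 lower, beside 2207 and 1885 with TMM.

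Directions reversed only for values near 0, apart from JAG2 and from HES1 in the difference of responses. NOTCH2 in H196_Co was -0.0066 with DESeq2 size factors or its Wald test, -0.080 and -0.075 by limma with pseudocounts of 0.1 and 1, -0.00055 without a filter, -0.0039 with the replicate block and -0.079 to 0.088 without 1 library. NOTCH2 in MRC5_CoH69 was -0.0043 and -0.0041, and HES1 between the co-cultures -0.094 and -0.054, by limma with pseudocounts of 0.1 and 1. In the difference of responses NOTCH1 was 0.013 with at least 10 counts in every library, 0.029 with DESeq2 size factors or its Wald test and 0.022 without a filter, and by limma with a pseudocount of 1 HES1 was -0.086 and JAG2 -0.13. Without 1 library, values ran from -0.069 to 0.021 for JAG1 in MRC5_CoH196, from -0.085 to 0.0018 for NOTCH1, -0.0071 to 0.029 for NOTCH2 and -0.28 to 0.043 for JAG2 in MRC5_CoH69, from -0.15 to 0.30 for HES1 and -0.17 to 0.051 for HEY1 between the co-cultures, from -0.021 to 0.17 for HEY1 in H196_Co, and from -0.16 to 0.10 for NOTCH1 in the difference of responses. The cause was not tested. No pairing by replicate number was seen, though these values cannot exclude one. Deviations of same-numbered libraries correlated at -0.116 to 0.081 in MRC5 and -0.151 to 0.0334 in H196. Those of differently numbered libraries correlated at -0.106 to 0.166 in MRC5 and -0.145 to 0.196 in H196. With the replicate numbers as a block the members called stayed at 4, 0, 4, 3, 3 and 9, and the pathway genes called in H196_Co were 3. Counts of at most 71 in a library limit JAG2, DLL1, HES1 and HEY1 in fibroblasts.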
